A study of Mus musculus with 12 samples.

Results

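The C-type lectin receptors of dendritic cells are described here through 10 mouse genes, Cd207, Cd209a, Clec4a2, Clec4d, Clec4e, Clec4n, Clec7a, Clec10a, Mrc1 and Ly75, out of 55335 genes quantified in each library. The other 9 members were listed by gene symbol, and Cd207 was picked on its measured counts, which were low in CTCF-deficient cells given LPS, so its values are given as a description with no test. The study asked how the chromatin insulator protein CTCF shapes gene expression in bone marrow-derived dendritic cells (BMDCs) at rest and after stimulation. BMDCs of C57BL/6 mice were grown for 6 days with GM-CSF, enriched for CD11c+ cells with beads and sequenced as 4 groups of 3 biological replicates. WT cells were CreER and left unstimulated, WTL cells were CreER and given LPS, KO cells were CreER;CTCF fl/fl and left unstimulated, and KOL cells were CreER;CTCF fl/fl and given LPS, in both cases at 100 ng/ml for 3 h. Every group carried the CreER transgene, which is expressed from the Rosa26 locus and so is not restricted to dendritic cells, and the deletion of Ctcf was started with 4-OH tamoxifen on the first culture day. Whether the WT cultures also received 4-OH tamoxifen is not clear from the sources used here. The mice were male and female 8 to 12 weeks old, with WT controls of matched age and sex, and the sources used here do not say which sex and age lie behind each library.

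C-type lectin receptors are transmembrane proteins that bind sugars on microbes and on host glycoproteins through a carbohydrate recognition domain. Dendritic cells use some of them, such as langerin, the mannose receptor and DEC-205, to take up antigen. Others pass a signal through an immunoreceptor tyrosine motif, either their own or that of the adaptor FcRγ, to the kinase Syk and the CARD9 complex, and a few carry an inhibitory motif that recruits phosphatases.

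Total expected counts, RSEM's estimates of the reads of each gene, were 12769773 to 16586334 per library with a median of 14551418. WTL replicate 2 stood apart from the other libraries, with 5.17% of its counts on ribosomal RNA genes against 0.383% to 1.19% in the other 11. Counts were scaled for library size and composition (normalized counts) and compared with edgeR's quasi-likelihood test in 1 fit of the 12 libraries. A gene was called at a Benjamini-Hochberg adjusted p under 0.05 over the 14008 genes tested, and all 10 members passed the filter on low counts, Cd207 only through WT and WTL. Ctcf, the deleted gene, had 1051, 987 and 975 normalized counts in the WT libraries, 886, 817 and 745 in WTL, 569.7, 562 and 516 in KO and 564, 530 and 526 in KOL. Every KO and KOL library was below every WT and WTL library, and Ctcf fell in KO against WT (log2 fold change -0.87, SE 0.08, adjusted p = 3.9e-07) and in KOL against WTL (log2 fold change -0.59, SE 0.08, adjusted p = 2.4e-05). With LPS it also fell in WT (log2 fold change -0.30, SE 0.07, adjusted p = 0.00319). These gene counts cover the whole gene and were not restricted to the deleted exons.

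The libraries were checked against markers of cell types. All 9 dendritic cell markers (Itgax, Itgam, H2-Aa, H2-Ab1, Cd74, Flt3, Zbtb46, Csf2ra and Csf2rb) averaged over 10 normalized counts, and Cd74 was the most abundant of them. TPM values, which give the share of a gene among all transcripts corrected for length, summed over these 9 genes to 12388, 12861 and 12241 TPM in WT, 11049, 12824 and 14620.5 in WTL, 8901, 9195 and 9036 in KO and 15444, 11100.2 and 12436 in KOL. In this sum all 3 KO libraries lay below the 3 WT libraries. H2-Aa (log2 fold change -1.15, SE 0.08, adjusted p = 4.1e-08) and H2-Ab1 (log2 fold change -0.76, SE 0.16, adjusted p = 0.00123) fell in KO against WT, whereas Itgax, which encodes the CD11c on which the cells were enriched, rose (log2 fold change 0.83, SE 0.08, adjusted p = 1.3e-06). All 8 macrophage markers also averaged over 10 normalized counts, led by Csf1r in KO and by Cd68 in the other groups, with sums of 973, 1052 and 971 TPM in WT, 674, 564 and 566 in WTL, 1046, 1068 and 1098 in KO and 544, 623 and 546 in KOL. In KO against WT, Csf1r rose (0.73, SE 0.12), and Adgre1 (-0.81, SE 0.13), Mertk (-1.16, SE 0.14) and Fcgr1 (-1.93, SE 0.16) fell. The other macrophage markers had higher means in KO, except Cd68. C1qa averaged 65.85 normalized counts in WT and 158 in KO, C1qb 399.5 and 477, C1qc 145 and 255 and Cd68 4677 and 4480. Of the 8 neutrophil markers 5 averaged over 10 normalized counts, and their sums were lower in every KO library than in every WT library, at 397, 374 and 392 TPM in WT, 432, 346 and 440.1 in WTL, 208, 224 and 192 in KO and 287, 336 and 325 in KOL. S100a8 was the most abundant neutrophil gene, and Ngp averaged 75.5 normalized counts in WT, 148 in WTL, 3.70 in KO and 9.58 in KOL. The 4 markers of conventional type 1 dendritic cells summed to 70.4, 66.0 and 60.9 TPM in WT, 34.3, 40.2 and 50.6 in WTL, 100.5, 101 and 91.5 in KO and 69.3, 49.6 and 58.3 in KOL, and Batf3 alone gave 56.0 TPM of the mean in WT and 88.1 of that in KO. The other members did not all follow the sum. Over WT, WTL, KO and KOL, Itgae averaged 109, 124, 48.9 and 93.6 normalized counts, Xcr1 33.9, 323, 39.6 and 393 and Clec9a 113.5, 73.3, 192 and 53.6.

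Other lineages contributed little RNA by their markers. The 5 T cell and 4 erythroid markers summed to at most 1.15 TPM and 0.96 TPM in any library, the 5 B cell markers to at most 1.71 TPM and the 6 mast cell and basophil markers to at most 1.16 TPM. Cd3d, Cd3g, Cd8b1, Trac and the 4 erythroid genes had 3 counts or fewer in every library, as did Ms4a2, Mcpt4 and Tpsb2 of the mast cell list. The 4 NK cell markers, led by Klrd1 in WT and WTL and by Klrb1c in KO and KOL, summed to 12.1, 8.21 and 10.9 TPM in WT, 3.41, 2.61 and 4.22 in WTL, 2.28, 2.47 and 1.90 in KO and 2.04, 1.43 and 1.00 in KOL, with Eomes at 3 counts or fewer in every library. Klrd1 averaged 52.8 normalized counts in WT, 22.3 in WTL, 0.320 in KO and 2.93 in KOL, and Klrb1c 36.7 normalized counts in WT, 13.4 in WTL, 44.2 in KO and 23.6 in KOL. The 4 eosinophil markers, led by Siglecf, summed to 18.1, 20.4 and 15.3 TPM in WT, 14.8, 7.24 and 8.99 in WTL, 23.1, 26.2 and 26.6 in KO and 10.9, 14.7 and 9.72 in KOL, with Epx at 3 counts or fewer in every library. The 4 plasmacytoid dendritic cell markers, of which Tcf4 gave most of the signal, reached 8.36, 8.81 and 9.59 TPM in WT, 38.0, 29.6 and 30.6 in WTL, 8.11, 7.76 and 6.83 in KO and 20.7, 25.1 and 18.6 in KOL, and the 5 stromal markers, led by Pecam1 in WT and by Pdgfrb in the other groups, 1.61, 1.66 and 1.61 TPM in WT, 3.89, 5.35 and 2.97 in WTL, 4.58, 4.87 and 4.81 in KO and 2.10, 3.83 and 2.66 in KOL. The 2 plasmacytoid markers that averaged over 10 normalized counts moved in opposite directions between WT and KO. Over WT, WTL, KO and KOL, Tcf4 averaged 338, 1920, 178.5 and 1359.5 normalized counts and Ccr9 21.8, 41.8, 114.5 and 77.4. The part of all these marker shifts in the results for the receptors was not tested. In bulk RNA, fewer cells that express a gene and less of its RNA per cell cannot be told apart.

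The levels of the receptors spanned a wide range in WT. By mean TPM over 3 libraries, Clec4n was the highest at 2804 ± 108 (SD), followed by Clec7a at 612 ± 35.9, Clec4a2 at 425 ± 21.3, Clec4d at 345 ± 31.2 and Clec4e at 342 ± 10.8. Mrc1 (104 ± 3.47), Ly75 (28.0 ± 0.836), Clec10a (18.5 ± 1.26), Cd207 (10.5 ± 0.757) and Cd209a (8.96 ± 0.816) came below them. Neighbours in this order did not overlap between libraries, except Clec4d and Clec4e. In WTL, Clec4e was second at 1033 ± 297 TPM and overlapped Clec4n at 1133 ± 222, and the pairs Clec4a2 with Clec7a and Cd207 with Clec10a also overlapped. In KO the order was that of WT, except that Cd209a (1.96 ± 0.506 TPM) stood above Cd207 (0.0800 ± 0.0916 TPM), and no neighbours overlapped. In KOL, Clec4n (1562 ± 209.5 TPM), Clec4e (486 ± 95.9 TPM) and Clec4d (367 ± 26.1 TPM) led, Clec4d overlapped Clec7a, and Mrc1 overlapped Ly75. Clec4n alone made up 59.7% ± 1.59 (SD, n = 3) of the summed TPM of the 10 genes in WT, 36.5% ± 0.717 in WTL, 70.5% ± 1.67 in KO and 51.6% ± 0.158 in KOL, whereas Clec4e made up 7.28% ± 0.173, 32.9% ± 2.22, 2.84% ± 0.0878 and 15.9% ± 1.01.

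**Figure D1:**
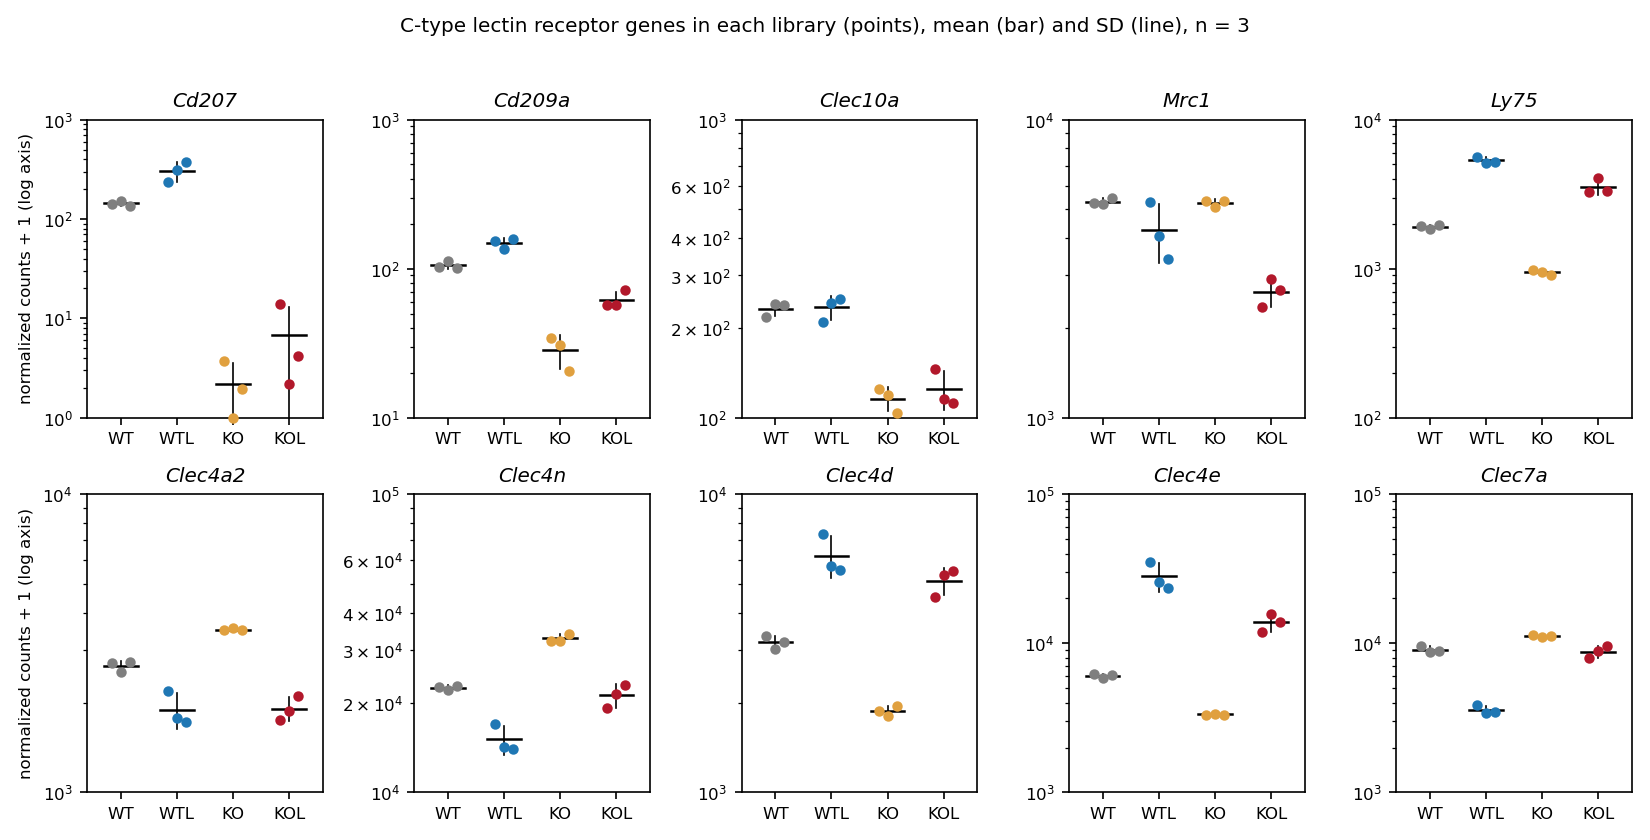
Normalized counts of the 10 receptor genes in each of the 12 libraries, plotted as the count plus 1 on a log axis that differs between panels. Points are libraries, bars are group means and vertical lines are SDs over 3 replicates. Cd207 lies between 0 and 12.9 normalized counts in the KO and KOL libraries and between 134 and 371 in the WT and WTL libraries.

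Calls were frequent among all genes in the 4 direct comparisons, so a call by itself does not set a receptor gene apart. Cd207 is left out of these counts. In WTL against WT, 4 of the 9 other members were higher and 4 lower, where 30.0% of all genes tested were higher and 30.2% lower. KO against WT gave 3 of 9 higher and 5 lower, beside 22.2% and 22.4% of all genes. KOL against WTL gave 2 of 9 higher and 6 lower, beside 21.4% and 23.3%, and KOL against KO gave 4 higher and 4 lower, beside 33.6% and 33.9%. For the difference between the LPS responses of the 2 genotypes, 3 of 9 were called higher and 1 lower, beside 8.70% and 8.75%. The median log2 fold change of the 9 was 0.02 in WTL against WT, -0.77 in KO against WT and -0.59 in KOL against WTL, beside -0.02, -0.01 and -0.04 over all genes. Unscaled TPM moved the balance of calls over all genes: limma on log2(TPM + 1) called 1710 genes higher and 7544 lower in WTL against WT, where edgeR called 4209 and 4224. It called 1807 and 3151 in KO against WT (edgeR 3110 and 3131), 2245 and 6935 in KOL against KO (edgeR 4704 and 4752) and 949 and 603 for the difference in LPS response (edgeR 1218 and 1225).

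Cd207 encodes langerin, the endocytic receptor that forms the Birbeck granules of Langerhans cells, and lies on the minus strand of chr6:83671215-83677857 (mm10). Its normalized counts were 142, 152 and 134 in the WT libraries, 233, 309 and 371 in WTL, 2.69, 0 and 0.926 in KO and 12.9, 1.17 and 3.20 in KOL. The WTL libraries were all above the WT libraries, and all 6 CTCF-deficient libraries were far below both, with KO and KOL overlapping. The sums of counts were 490 over the 3 WT libraries and 4 over the 3 KO libraries. Scaled for library size, the WT level was 115 times the KO level, so that KO held 0.867% of the WT level. This ratio pools the 3 libraries of each group for a gene picked on its counts, so no interval is given. Of the 4 counts 3 came from KO replicate 1, and the ratio was 302 without KO replicate 1, 78.2 without KO replicate 2 and 102 without KO replicate 3. No test is given, since Cd207 passed the filter only through the groups in which it is high.

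With LPS, the values that chose the gene were 807 counts over the WTL libraries and 16 over the KOL libraries, a scaled ratio of 52.7 that follows from the choice of the gene. Of these 16 counts, 12 came from KOL replicate 1, and without this library the ratio was 139. Of the other Langerhans cell markers, Cdh1 (E-cadherin) averaged 257 normalized counts in WT, 228 in WTL, 35.0 in KO and 54.9 in KOL, and fell in KO against WT (log2 fold change -2.88, SE 0.14, adjusted p = 8.4e-10). Epcam averaged 54.1 normalized counts in WT, 37.0 in WTL, 37.2 in KO and 91.2 in KOL, and it rose 2.46-fold in KOL against WTL (adjusted p = 0.00017).

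Cd209a is a mouse relative of human DC-SIGN, a mannose- and fucose-binding receptor of monocyte-derived and conventional dendritic cells, on the minus strand of chr8:3743397-3748984. Its normalized counts were 101, 111 and 100.3 in WT, 152, 135 and 157 in WTL, 33.2, 29.8 and 19.4 in KO and 55.9, 56.2 and 70.5 in KOL. The 4 groups did not overlap, with WTL highest and KO lowest. Cd209a fell 3.77-fold in KO against WT (log2 fold change -1.92, SE 0.18, adjusted p = 7.5e-07) and 2.43-fold in KOL against WTL (log2 fold change -1.28, SE 0.16, adjusted p = 1.7e-05). LPS raised it in KO (log2 fold change 1.14, SE 0.19, adjusted p = 0.00011) and in WT (log2 fold change 0.51, SE 0.15, adjusted p = 0.00847). The rise in WT was not called without WT replicate 1 (0.41) or WT replicate 3 (0.41), and it became -0.090 with limma on log2(TPM + 1), on which scale the median of all genes moved by -0.44 in WTL against WT and -0.38 in KOL against KO. The rise in KO was 0.53 on that scale, or 0.91 relative to the median. Of the 6 other CD209 family genes, 2 passed the filter. Cd209c averaged 62.8 normalized counts in WT, 60.0 in WTL, 16.7 in KO and 25.3 in KOL, a fall in KO against WT (log2 fold change -1.90, SE 0.23, adjusted p = 1.3e-05), and Cd209d, which passed the filter only through WT and WTL and is given no test, 8.10 normalized counts in WT, 13.3 in WTL, 1.54 in KO and 5.88 in KOL. These genes are close copies of each other, but the counts of Cd209a were whole numbers in all 12 libraries, with no sign of reads divided between genes.

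Clec10a encodes MGL1, a receptor of the galactose-type group of C-type lectins, on the plus strand of chr11:70156197-70170834. It had 217, 239 and 238 normalized counts in WT, 209, 242 and 249.9 in WTL, 124, 118 and 103 in KO and 145, 115 and 111 in KOL. The CTCF-deficient libraries were all below the WT and WTL libraries, and within each genotype the libraries with and without LPS overlapped. Clec10a fell 2.01-fold in KO against WT (log2 fold change -1.01, SE 0.12, adjusted p = 7.6e-06) and 1.89-fold in KOL against WTL (log2 fold change -0.92, SE 0.12, adjusted p = 2.7e-05). With LPS it was not called in WT (log2 fold change 0.02, 95% interval -0.2 to 0.24) or in KO (0.11, -0.14 to 0.36), but limma on log2(TPM + 1) turned the WT value to -0.43 (adjusted p = 0.00336, range over all alternatives 0.00336 to 1), equal to the shift of all genes on that scale, and the KO value to -0.19. Its counts were not whole in any library, so part of its reads was shared with another gene, a limit on its exact level. Mgl2, the neighbouring paralog MGL2, averaged 4826 normalized counts in WT, 5665 in WTL, 4807 in KO and 3828 in KOL and was not called in KO against WT (-0.01, SE 0.07), whereas Asgr2, a subunit of the asialoglycoprotein receptor, averaged 61.0 normalized counts in WT, 96.2 in WTL, 5.82 in KO and 7.93 in KOL and is likewise given no test, having passed the filter only through WT and WTL.

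Mrc1 and Ly75 encode the mannose receptor CD206 and DEC-205, large endocytic receptors of 1 family whose cargo is routed to antigen presentation. Mrc1 (plus strand, chr2:14229392-14332057) had 5261, 5205 and 5459 normalized counts in WT, 5303, 4072 and 3400.3 in WTL, 5343, 5086 and 5349 in KO and 2343, 2919 and 2686 in KOL. WT and KO overlapped and WTL was spread, with replicate 1 at the WT level, whereas every KOL library was below all others. Mrc1 was not called in KO against WT (log2 fold change -0.01, 95% interval -0.26 to 0.23) and fell in KOL against KO (log2 fold change -0.99, SE 0.13, adjusted p = 8.3e-06) and in KOL against WTL (log2 fold change -0.68, SE 0.13, adjusted p = 0.00051). In WTL against WT it also fell (log2 fold change -0.32, SE 0.12, adjusted p = 0.0397), which was not called without WTL replicate 2 (-0.29), without WTL replicate 3 (-0.18), or without KO replicate 1, 2 or 3 (-0.32 each). Without WTL replicate 1 it was -0.51, and on log2(TPM + 1) -0.70, or -0.26 relative to the median of all genes. The adjusted p of Mrc1 in WTL against WT was 0.00035 to 0.217 over the alternatives. On rescaled TPM the value was -0.44 in KOL against WTL and -0.58 in KOL against KO, both called. The fall of Mrc1 in WTL against WT was not called on rescaled TPM or with edgeR on the libraries of that comparison alone. Over the alternatives other than leaving out a library, its smallest value there was -0.20.

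Ly75 lies on the minus strand of chr2:60292103-60383303. It had 1919.8, 1850 and 1961 normalized counts in WT, 5641, 5137 and 5224 in WTL, 981, 954 and 900.4 in KO and 3279.8, 4047 and 3328 in KOL. The groups did not overlap, in the order WTL, KOL, WT and KO. Ly75 fell 2.02-fold in KO against WT (log2 fold change -1.01, SE 0.09, adjusted p = 2.5e-07) and in KOL against WTL (log2 fold change -0.59, SE 0.08, adjusted p = 4.7e-05), and rose with LPS in WT (log2 fold change 1.48, SE 0.08, adjusted p = 1.6e-09) and in KO (log2 fold change 1.91, SE 0.09, adjusted p = 1.2e-10). The rise in WT was 0.92 on log2(TPM + 1), or 1.35 relative to the median of all genes. The antisense gene Gm13571 overlaps Ly75 and had 4 to 178 counts per library. The study's methods name a strand-specific kit, but whether the counting used the strand is not given in the sources used here, so the 2 cannot be fully separated. The counts of Ly75 were not whole in 7 of the 12 libraries. The other 2 genes of the mannose receptor family listed, Mrc2 and Pla2r1, did not pass the filter.

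Clec4a2, Clec4n, Clec4d and Clec4e belong to the Dectin-2 cluster on chromosome 6 and lie within 183.4 kb. Clec4a2 encodes DCIR, which carries an inhibitory motif, and lies on the plus strand of chr6:123106428-123143999. Its normalized counts were 2707, 2543 and 2736 in WT, 2192, 1773 and 1719 in WTL, 3497, 3550.5 and 3505 in KO and 1752, 1872 and 2098 in KOL. KO was highest, and the 2 LPS groups were lowest and overlapped each other. It rose 1.32-fold in KO against WT (log2 fold change 0.40, SE 0.09, adjusted p = 0.00254), and fell with LPS in WT (log2 fold change -0.49, SE 0.09, adjusted p = 0.00037) and in KO (log2 fold change -0.88, SE 0.09, adjusted p = 1.1e-06). The falls with LPS on log2(TPM + 1) were -1.22 in WT and -1.55 in KO, or -0.79 and -1.17 relative to the median of all genes. The rise in KO was not called on TPM (log2 fold change 0.21, adjusted p = 0.251 with limma on log2(TPM + 1), range over all alternatives 2.9e-08 to 0.258). KOL against WTL was not called (0.01, 95% interval -0.17 to 0.19) and was -0.12 on log2(TPM + 1). Its counts were not whole in any library, so reads shared with other genes, not identified here, make its exact level uncertain.

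Clec4n encodes Dectin-2, which recognizes mannans of fungi and signals through FcRγ, and lies on the plus strand of chr6:123229843-123247021. It had 22644, 21980.3 and 22729 normalized counts in WT, 17024, 14158 and 13979 in WTL, 32272, 32228 and 34024 in KO and 19166, 21365 and 22967 in KOL. KO was the highest group and WTL the lowest, and KOL overlapped only WT. Clec4n rose 1.46-fold in KO against WT (log2 fold change 0.55, SE 0.09, adjusted p = 0.00012) and 1.41-fold in KOL against WTL (log2 fold change 0.49, SE 0.09, adjusted p = 0.00033). It fell with LPS in both genotypes, in WT (log2 fold change -0.58, SE 0.09, adjusted p = 4.6e-05) and in KO (log2 fold change -0.63, SE 0.09, adjusted p = 1.5e-05). These falls were larger on log2(TPM + 1), -1.32 in WT and -1.39 in KO, or -0.89 and -1.01 relative to the median of all genes.

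Clec4d (MCL, plus strand, chr6:123262111-123275265) and Clec4e (Mincle, minus strand, chr6:123281789-123289870) are neighbours 6.5 kb apart that recognize mycobacterial glycolipids. Clec4d had 3351, 3033 and 3185 normalized counts in WT, 7377, 5755 and 5557 in WTL, 1872, 1808 and 1950 in KO and 4509.9, 5365 and 5509 in KOL. No groups overlapped, although the highest KOL library nearly reached the lowest WTL library. Clec4d fell 1.70-fold in KO against WT (log2 fold change -0.77, SE 0.11, adjusted p = 3.9e-05) and rose with LPS in WT (log2 fold change 0.96, SE 0.10, adjusted p = 2e-06) and in KO (log2 fold change 1.45, SE 0.11, adjusted p = 2.5e-08). On log2(TPM + 1) the rise in WT was 0.40, or 0.83 relative to the median of all genes. The fall in KOL against WTL was small (log2 fold change -0.28, SE 0.10, adjusted p = 0.0414) and was lost without WT replicate 1, 2 or 3 (-0.25 each), WTL replicate 1 (-0.14), KO replicate 1, 2 or 3 (-0.28 each) or KOL replicate 1 (-0.19). Its adjusted p was 0.0162 to 0.204 over the alternatives.

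Clec4e had 6203, 5880.4 and 6115 normalized counts in WT, 35208, 25833 and 23683 in WTL, 3313, 3367 and 3328 in KO and 11882, 15683 and 13996 in KOL. Every group stood apart from the others, with WTL highest and KO lowest. LPS raised it 4.66-fold in WT (log2 fold change 2.22, SE 0.13, adjusted p = 2.6e-09) and 4.15-fold in KO (log2 fold change 2.05, SE 0.13, adjusted p = 5.2e-09). It fell 1.82-fold in KO against WT (log2 fold change -0.86, SE 0.13, adjusted p = 7.3e-05) and 2.04-fold in KOL against WTL (log2 fold change -1.03, SE 0.13, adjusted p = 1.4e-05). The ratio of Clec4e to Clec4d in TPM was 0.997 ± 0.104 (SD, n = 3) in WT, 2.23 ± 0.195 in WTL, 0.888 ± 0.00937 in KO and 1.32 ± 0.228 in KOL.

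The genes of the cluster that were not members are Clec4a1, Clec4a3, Clec4a4, Clec4b1 and Clec4b2, of which Clec4b2 did not pass the filter. In KO against WT, 3 of the 4 tested were higher (1 without WT replicate 1 or KO replicate 3), beside 22.2% of all genes, Clec4a1 at 0.23 (SE 0.09, adjusted p = 0.0499), Clec4a3 at 0.93 (SE 0.12, adjusted p = 2.5e-05) and Clec4b1 at 0.36 (SE 0.11, adjusted p = 0.0159), and Clec4a4 was not called (0.76, SE 0.38). The call of Clec4a1 was lost without WT replicate 1 (0.20), WT replicate 2 (0.20), WT replicate 3 (0.19), WTL replicate 2 (0.23), KO replicate 1 (0.23), KO replicate 2 (0.27), KO replicate 3 (0.21) or KOL replicate 3 (0.23), and that of Clec4b1 without WT replicate 1 (0.23) or KO replicate 3 (0.29). Along chromosome 6, the genes called in this comparison were thus higher in KO from Clec4a1 to Clec4n, and the last 2, Clec4d and Clec4e, were lower. In WTL against WT, Clec4a3 (-0.84, SE 0.13) and Clec4b1 (-0.56, SE 0.12) fell, and Clec4a1 rose (0.47, SE 0.09). These comparisons share the WT libraries, so their values are given side by side only. In KOL against WTL, Clec4a1 fell (-0.70, SE 0.09, adjusted p = 2.5e-05), and Clec4a3 (-0.03), Clec4a4 (-0.06) and Clec4b1 (-0.24) were not called. For the difference in LPS response 3 of the 4 were lower, beside 8.75% of all genes. This became 2 without WT replicate 1 or 3, WTL replicate 3, KO replicate 3 or KOL replicate 1. KOL against KO gave 4 of 4 lower, beside 33.9% of all genes, from -0.47 for Clec4a1 to -1.81 for Clec4a3, of which Clec4a4 was not called without KO replicate 1 (-0.86), KOL replicate 1 (-1.03) or KOL replicate 3 (-1.03).

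**Figure D2:**
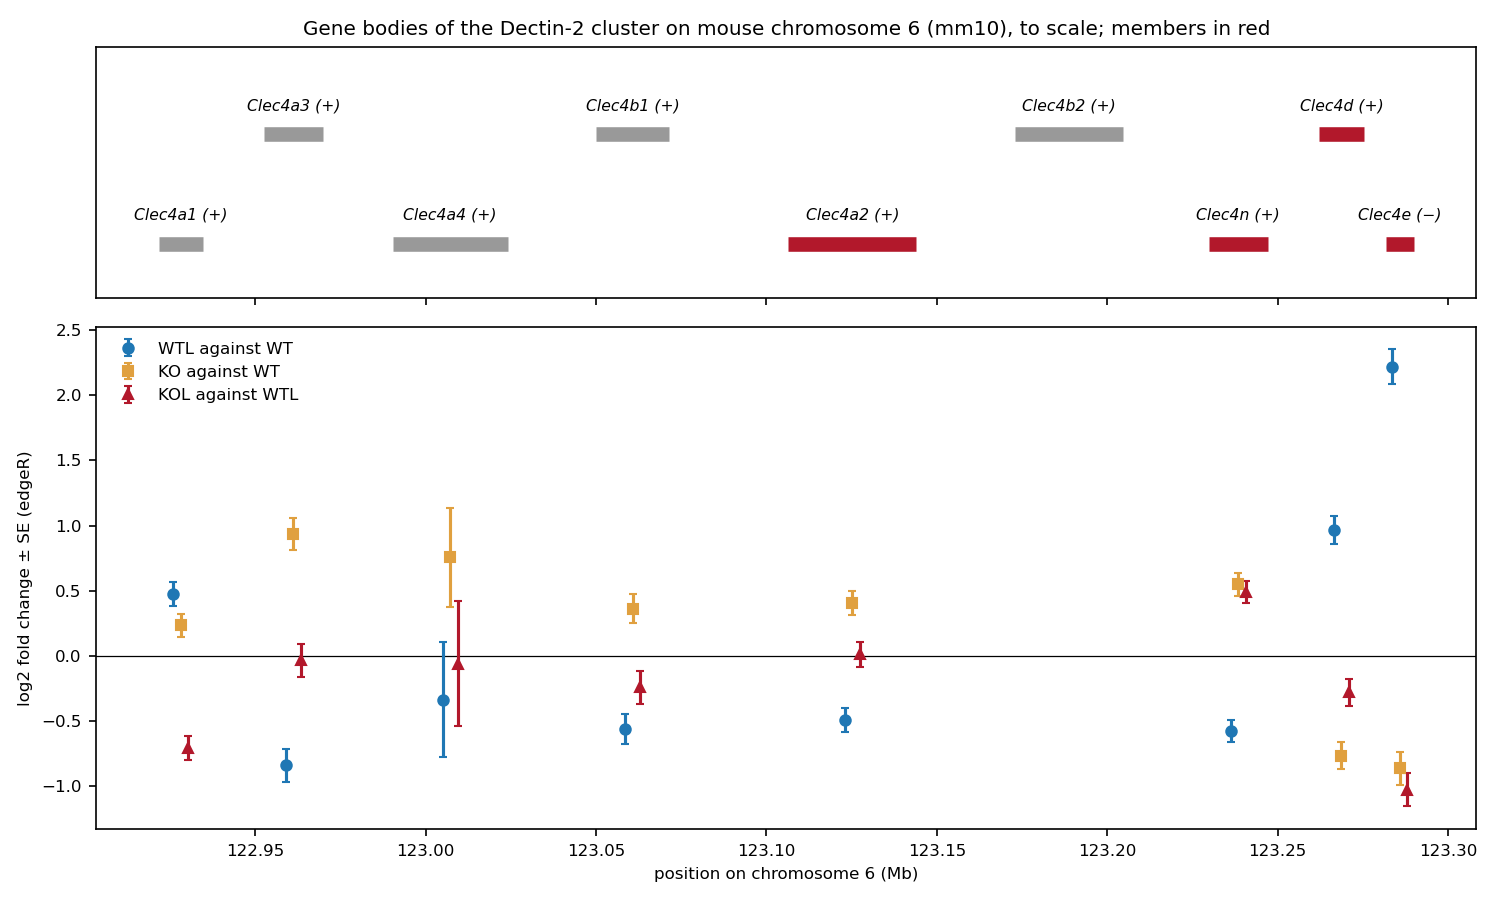
Gene bodies of the Dectin-2 cluster drawn to scale on chromosome 6 of mm10 (upper panel, members in red, strand in brackets) and log2 fold changes with SE bars from edgeR (lower panel) against position in Mb, for WTL against WT, KO against WT and KOL against WTL. Symbols of 1 gene are set slightly apart sideways. Clec4d and Clec4e, at the right, are below 0 in KO against WT (-0.77 and -0.86), and Clec4n beside them is above 0 (0.55).

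Clec7a encodes Dectin-1, the receptor for fungal β-glucans that signals through its own cytoplasmic motif to Syk, and lies on the minus strand of chr6:129461591-129472779, where the annotation used classes it as a polymorphic pseudogene. It had 9652, 8754 and 8859.8 normalized counts in WT, 3857, 3385 and 3476 in WTL, 11308, 11026 and 11278 in KO and 7976, 8871 and 9570.5 in KOL. The WTL libraries were far below all others, and the KOL libraries overlapped only WT. In WTL against WT, Clec7a fell 2.54-fold (log2 fold change -1.35, SE 0.08, adjusted p = 2.5e-09), and in KOL against KO it fell 1.27-fold (log2 fold change -0.35, SE 0.08, adjusted p = 0.00126). On log2(TPM + 1) these falls were -2.04 in WT and -1.10 in KO, or -1.61 and -0.72 relative to the median of all genes, and on rescaled TPM the fall in KO was -0.65. KOL was 2.46-fold higher than WTL (95% interval of the log2 fold change 1.15 to 1.46, adjusted p = 1.2e-08). The rise in KO against WT was smaller (log2 fold change 0.30, SE 0.08, adjusted p = 0.00602) and was not called without WT replicate 2 (0.24), without WT replicate 3 (0.25) or on log2(TPM + 1) (0.30), with an adjusted p of 2.7e-06 to 0.109 over the alternatives.

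The LPS response of a gene in KO was set against that in WT by the interaction term of the same fit. For Clec7a the response differed by 1.00 (log2, SE 0.11, adjusted p = 3.8e-05), being -1.35 in WT and -0.35 in KO, and it was called under each of the 20 alternatives (highest adjusted p 0.0108). Ly75 rose more in KO than in WT, by 0.43 (SE 0.12, adjusted p = 0.0225), and so did Clec4d, by 0.48 (SE 0.15, adjusted p = 0.0369). Mrc1 fell more in KO than in WT (-0.67, SE 0.18, adjusted p = 0.0182). The call for Ly75 was lost without WTL replicate 2 (0.40), KO replicate 2 (0.43) or KO replicate 3 (0.39), and that for Mrc1 without WT replicate 1 (-0.59), 2 (-0.59) or 3 (-0.62) or KOL replicate 1 (-0.59). For Clec4d the call was lost without WT replicate 1 (0.52), WTL replicate 2 (0.43) or 3 (0.41), KO replicate 1 (0.48), 2 (0.46) or 3 (0.51), or KOL replicate 3 (0.43). On log2(TPM + 1) none of the 3 was called (0.45 for Ly75, -0.32 for Mrc1 and 0.58 for Clec4d).

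The other 5 members tested were not called for this difference, which does not show that their responses were equal. The 95% interval of the difference was -0.52 to 0.19 for Clec4e, -0.29 to 0.18 for Clec4n, -0.24 to 0.42 for Clec10a, 0.16 to 1.11 for Cd209a and -0.65 to -0.14 for Clec4a2. Clec4a2 (adjusted p = 0.0535) was called lower without WTL replicate 3 (-0.46), without KOL replicate 3 (-0.46), with DESeq2 (-0.38) and with edgeR without a filter (-0.38), with an adjusted p of 0.0286 to 0.31 over the alternatives.

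**Figure D3:**
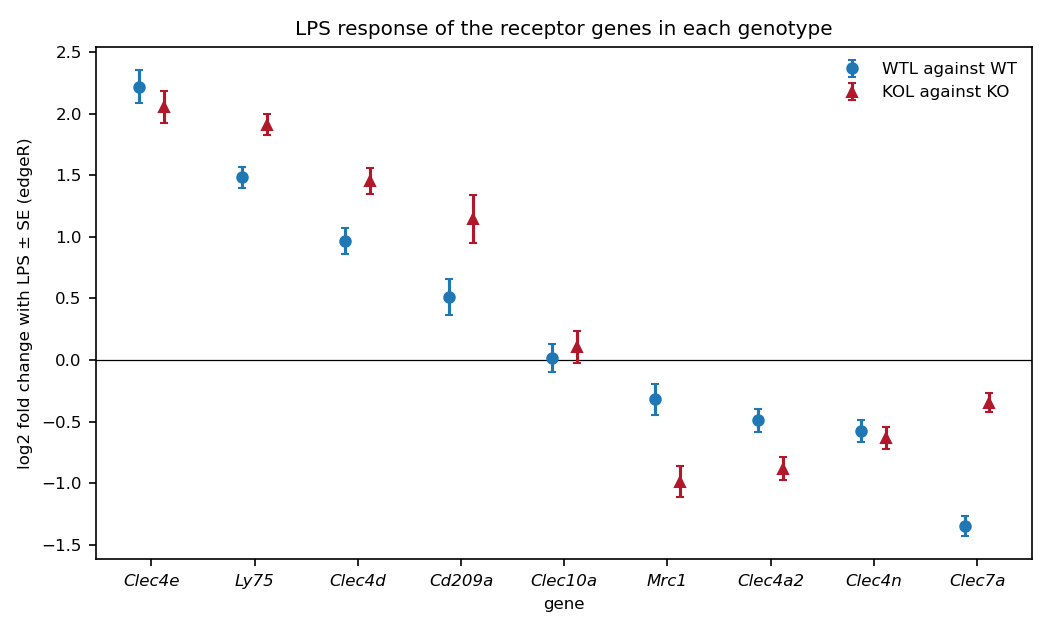
Log2 fold change with LPS (vertical axis, with SE bars from edgeR) of the 9 receptor genes other than Cd207, in WT cells (WTL against WT, circles) and in CTCF-deficient cells (KOL against KO, triangles). Clec7a lies at -1.35 in WT and -0.35 in KO, and Clec4e at 2.22 and 2.05.

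Of 30 other C-type lectin receptor genes listed, 18 passed the filter. Cd209d and Asgr2, with no library at the filter's cutoff in KO, were left out of the counts that follow. In KO against WT 7 of the other 16 were higher and 5 lower (3 lower without WT replicate 1 or KO replicate 1 or 3), in WTL against WT 6 higher and 6 lower, in KOL against WTL 4 higher and 7 lower and in KOL against KO 3 higher and 10 lower. The shares of all genes called higher and lower were 22.2% and 22.4% in KO against WT, 30.0% and 30.2% in WTL against WT, 21.4% and 23.3% in KOL against WTL and 33.6% and 33.9% in KOL against KO. For the difference in LPS response 2 were higher and 5 lower, beside 8.70% and 8.75%. Clec1a, near Clec7a, had the largest rise of the 16 in KO against WT. It averaged 30.5 normalized counts in WT, 13.7 in WTL, 244 in KO and 50.5 in KOL (log2 fold change 3.00, SE 0.18, adjusted p = 1e-08), and Clec1b rose in counts (log2 fold change 1.46, SE 0.18, adjusted p = 1.2e-05), whereas its TPM, 11.4 ± 6.07 in WT and 14.1 ± 2.48 in KO (SD, n = 3), overlapped between the groups. Clec12a, an inhibitory receptor for uric acid crystals, rose 2.28-fold in KO against WT, from 1618 ± 104 to 3682 ± 28.7 normalized counts (SD, n = 3, adjusted p = 2e-07). Clec2d, the ligand of an inhibitory NK receptor, averaged 2665 normalized counts in WT, 8319 in WTL, 1046 in KO and 4789 in KOL, a fall in KO against WT (log2 fold change -1.35, SE 0.08, adjusted p = 4.1e-09) and a rise with LPS in WT (log2 fold change 1.64, SE 0.07, adjusted p = 1.5e-10). Olr1, the oxidized lipoprotein receptor LOX-1, averaged 1398 normalized counts in WT, 2383 in WTL, 1065 in KO and 4764 in KOL and rose more with LPS in KO than in WT (difference 1.39, SE 0.18, adjusted p = 0.00011). Cd93 fell in all 4 direct comparisons, with 2180.3 normalized counts in WT, 888 in WTL, 939 in KO and 365 in KOL.

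The receptors act through a shared set of adaptors, kinases and phosphatases, of which 17 listed genes were all tested. In KO against WT 6 of the 17 were higher and 4 lower (median log2 fold change 0.14), beside 22.2% and 22.4% of all genes, and in KOL against WTL 6 were higher and 7 lower (4 lower without WT replicate 1, 2 or 3 or WTL replicate 2, median -0.08), beside 21.4% and 23.3%. Fcer1g, which encodes FcRγ, averaged 4412 normalized counts in WT, 6961 in WTL, 3904 in KO and 5267 in KOL and was not called in KO against WT (-0.18, SE 0.07), but it was called lower without WT replicate 1 (-0.25), WTL replicate 1 (-0.18), KOL replicate 2 (-0.18) or KOL replicate 3 (-0.18). Tyrobp (DAP12) averaged 9218 normalized counts in WT, 8722 in WTL, 12173 in KO and 11451 in KOL and rose in KO against WT (log2 fold change 0.40, SE 0.10, adjusted p = 0.00341). Syk averaged 6734 normalized counts in WT, 11004 in WTL, 9432 in KO and 9226 in KOL and rose with LPS in WT (0.71, SE 0.09) but was not called in KO (-0.03, SE 0.09), a difference of -0.74 (SE 0.12, adjusted p = 0.00083). Prkcd, the kinase between Syk and CARD9, averaged 12163 normalized counts in WT, 15205 in WTL, 24508 in KO and 18035 in KOL, and rose in KO against WT (log2 fold change 1.01, SE 0.06, adjusted p = 4.2e-09). Card9 averaged 759.5 normalized counts in WT, 350.4 in WTL, 724 in KO and 365 in KOL, was not called in KO against WT (-0.07, SE 0.09), and fell with LPS in WT (-1.11, SE 0.09) and in KO (-0.99, SE 0.09). The largest rises of the list with LPS in WT were those of Src (2.73, SE 0.10) and Malt1 (2.27, SE 0.15). LPS gave 10 higher (6 without WT replicate 3) and 5 lower in WT, beside 30.0% and 30.2%, and 7 higher and 7 lower in KO, beside 33.6% and 33.9%.

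Mrc1 and Clec10a are often used with other genes as markers of alternative activation by IL-4, so 10 such genes were listed. Retnla and Alox15, each with no library at the filter's cutoff in a group, were left out of the counts that follow. In KO against WT 3 of the other 8 were higher (1 without WT replicate 1, 2 or 3) and 5 lower, beside 22.2% and 22.4% of all genes. Ccl24 had 15.7 ± 3.92 normalized counts in WT and 125 ± 8.51 in KO (SD, n = 3), a rise (adjusted p = 3.8e-08). Retnla had 3.40 ± 3.04 in WT and 81.8 ± 8.31 in KO and is given no test. Among those lower were Chil3, Pdcd1lg2, Ccl17 and Ccl22, with log2 fold changes of -1.35, -1.42, -1.08 and -0.70. The list thus split in both directions. KOL against WTL gave 1 higher (2 without WT replicate 1 or 2 or KOL replicate 3) and 4 lower, beside 21.4% and 23.3%. LPS gave 5 of 8 higher in WT (2 without WT replicate 3) and 5 of 8 higher in KO, beside 30.0% and 33.6%, and the difference in response 3 of 8 higher, beside 8.70%.

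Among 14 transcription factors of myeloid and Langerhans cells, 2 were higher and 3 lower in KO against WT, beside 22.2% and 22.4% of all genes. The 2 higher became 1 without WT replicate 2 or 3 or KO replicate 1 or 3, and 4 without WTL replicate 1 or KOL replicate 2. Pparg had 201 ± 5.34 normalized counts in WT and 74.3 ± 11.2 in KO (SD, n = 3), a fall (adjusted p = 2.7e-05). Also lower were Cebpa, at 799.7 ± 34.0 in WT and 453 ± 24.7 in KO, and Klf4, at 612 ± 20.9 and 443 ± 25.2. Batf3 rose (0.64, SE 0.16). Runx3 and Id2, which Langerhans cells require, were not called (Runx3 -0.14, SE 0.14; Id2 -0.08, SE 0.08), nor were Irf4 (-0.04, SE 0.08) and Irf8 (-0.15, SE 0.11). KOL against WTL gave 4 higher and 6 lower, beside 21.4% and 23.3%. LPS gave 6 higher and 4 lower in WT and 7 higher and 5 lower in KO, beside 30.0% and 30.2%, and 33.6% and 33.9%.

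Of 11 genes of the TGF-β pathway, on which Langerhans cells depend, 9 were tested, and Tgfb3 and Bmp7 did not pass the filter. Tgfb2, with no library at the filter's cutoff in WT, was left out of the counts that follow. In KO against WT 3 of the other 8 were higher and 3 lower, beside 22.2% and 22.4% of all genes. Smad3 had 26.8 ± 8.92 normalized counts in WT and 104 ± 7.62 in KO (SD, n = 3), a rise (adjusted p = 9.3e-06). Smad7, an inhibitor of the pathway, had 69.9 ± 6.98 and 22.1 ± 6.85, a fall (adjusted p = 0.00024). Of the receptors, Acvrl1 fell (-1.47, SE 0.10), and Tgfbr1 rose (0.42, SE 0.13), which was not called without WT replicate 1 (0.39), WT replicate 2 (0.37) or WT replicate 3 (0.39). LPS gave 2 higher (1 without WT replicate 1, 2 or 3 or WTL replicate 1) and 4 lower in WT and 2 higher (1 when any single one of 8 libraries was left out) and 5 lower in KO, beside 30.0% and 30.2%, and 33.6% and 33.9%.

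The genes whose profile over the 12 libraries was most like that of each member were found by Pearson's r of log2(normalized counts + 1) among 9329 genes with a mean of at least 100 normalized counts, other members left out. The 12 libraries fall into 4 groups, so r mostly reflects the group means and is given without a test. For Cd207 they were Mrpl23 (r = 0.984), Trf (0.984) and Aopep (0.984), and Mrpl23 averaged 251 in WT, 298 in WTL, 29.9 in KO and 48.7 in KOL. For Cd209a they were Lrrc32 (r = 0.983), Flrt3 (0.982) and Npm3 (0.980), of which Flrt3 averaged 673 in WT, 1354 in WTL, 56.5 in KO and 209 in KOL. Clec10a was closest to Trf (r = 0.981), Gfm1 (0.977) and Nomo1 (0.974), and Trf, the transferrin gene, thus stands beside both Cd207 and Clec10a. Clec4e was closest to Met (r = 0.999), Ell2 (0.998) and Rasgrp1 (0.997), with Met at 1616 in WT, 6952 in WTL, 884 in KO and 3395 in KOL. Clec4d was closest to Tiparp (r = 0.997), Clmp (0.996) and Rbbp8 (0.995). Ly75 was closest to Slc7a2 (r = 0.997), Nlrp3 (0.996) and Slfn1 (0.996), and Nlrp3, the inflammasome sensor, averaged 937 in WT, 3949.9 in WTL, 392 in KO and 2528 in KOL. Clec4n was closest to Ccr2 (r = 0.991), Wdhd1 (0.985) and Plekha8 (0.985), and the chemokine receptor gene Ccr2 averaged 6563 in WT, 2017 in WTL, 16194 in KO and 5401 in KOL. Clec4a2 was closest to Zfp992 (r = 0.989), Dffa (0.982) and Mtr (0.982), Clec7a to Plekha1 (r = 0.986), Grpel2 (0.984) and Stxbp5 (0.980) and Mrc1 to Strn (r = 0.985), Ptar1 (0.982) and Plekhm3 (0.976).

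The bases before the RefSeq start of a gene were searched for short motifs on both strands in RefSeq promoters (GRCm38.p6), which were found for 8 of the 10 members. Clec4n and Clec10a had no entry. The letters searched were TTCNNNGAA for STAT factors, TGANTCA for AP-1, TTGCNNAA for C/EBP and GAGGAA for the core of PU.1, together with the NF-kB motif. In the 250 bases before the start, 7.02%, 6.75%, 9.56%, 23.3% and 7.25% of the 32851 promoters in the table hold them. The sequences of Cd207 (chr6:83677858-83678107, minus strand), which had the largest ratio between WT and KO among the members, and of the neighbours Clec4d (chr6:123261857-123262106, plus strand) and Clec4e (chr6:123289872-123290121, minus strand), which moved in the same direction in each direct comparison, are printed 5′ to 3′ and end at the base before the start, with matches in capitals.
Cd207: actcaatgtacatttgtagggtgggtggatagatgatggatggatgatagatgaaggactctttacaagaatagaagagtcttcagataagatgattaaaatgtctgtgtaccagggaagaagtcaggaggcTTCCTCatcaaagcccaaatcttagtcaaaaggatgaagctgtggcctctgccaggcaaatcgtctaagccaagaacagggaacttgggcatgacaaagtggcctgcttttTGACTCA
Clec4d: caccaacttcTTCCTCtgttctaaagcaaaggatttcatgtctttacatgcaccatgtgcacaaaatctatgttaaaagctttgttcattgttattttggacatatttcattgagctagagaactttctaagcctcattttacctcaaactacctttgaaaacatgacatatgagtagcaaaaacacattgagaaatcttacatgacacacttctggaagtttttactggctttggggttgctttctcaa
Clec4e: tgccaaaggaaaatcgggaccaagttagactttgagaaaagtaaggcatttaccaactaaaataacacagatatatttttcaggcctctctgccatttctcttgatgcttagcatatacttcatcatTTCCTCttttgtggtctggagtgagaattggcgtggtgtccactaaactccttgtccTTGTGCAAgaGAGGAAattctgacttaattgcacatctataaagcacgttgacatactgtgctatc
Cd207 held a PU.1 core and, in its last 7 bases, an AP-1 motif. Clec4d held a PU.1 core, and Clec4e held PU.1 cores on both strands and a C/EBP motif between them. Elsewhere, Clec4a2 held a STAT motif, in a stretch before the RefSeq start that lies within the gene body given above (chr6:123122440-123122689), Ly75 a C/EBP motif, Mrc1 3 PU.1 cores and Clec7a a PU.1 core in both of its entries, and Cd209a held none of these letters. The stretches of Ly75 and Mrc1 overlap the first bases of the gene bodies given above. No match overlapped another, and a match is a description of the letters, not of a bound site.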

How the data were processed

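RNA-seq libraries of BMDCs (4 groups of 3, from the sample titles) were analysed from the processed files. The authors used Trim Galore for trimming, STAR (2.5.1 by the labels) for alignment to mm10 and RSEM for gene quantification. By the labels ribosomal RNA was depleted, whereas the study's methods give a stranded poly(A) kit. The authors deposited for each gene an expected count, an estimate in which reads that fit several genes are divided. The authors also deposited TPM, scaled to the same sum in every library, which keeps no depth. Gene positions (mm10) were taken from GENCODE M21, where 54587 of 55335 identifiers were found with the same version.

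Expected counts were rounded to whole numbers, filtered by group with filterByExpr and normalized by TMM in edgeR 4.0.16 (R 4.3.3). A normalized count is the count over the library's effective size, times the mean effective size of the 12. The quasi-likelihood test (glmQLFit, glmQLFTest) was run on 12 libraries without covariates, with Benjamini-Hochberg adjustment over 14008 genes and a threshold of 0.05 without a fold cutoff. An SE is the absolute log2 fold change over the square root of the F statistic, and a 95% interval of a fold change is the normal interval from this SE. The study used DESeq2, which is an alternative here. P-values set a change against the spread between the replicates, whose animals or cultures the labels do not identify. The fit shared this spread over the 4 groups, although it was unequal. Between replicate pairs, chi-square per degree of freedom of raw counts was 1.69 to 1.9 in KO and 3.26 to 4.64 in WT. It was 8.46 to 30 in KOL and 29.5 to 81.5 in WTL. On the compared libraries alone edgeR called 2351 genes higher and 2124 lower in KOL against WTL, where the shared fit called 2991 and 3266. In KO against WT it called 4096 and 4176, against 3110 and 3131. The test was run first on simulated counts with known changes. In these the spread at a given mean was the same in all groups, unlike in the measured libraries.

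Alternatives were DESeq2 1.42.0, edgeR with the size factors of DESeq2, edgeR unfiltered or with a filter of 10 counts in 3 libraries, edgeR on the libraries of each comparison alone, limma 3.58.1 (genes at 1 TPM or more in 3 libraries) with pseudocounts of 1 and 0.1 before log2, the study's fold cutoffs (2 for LPS, 1.3 for KO against WT, 1.5 for KOL against WTL), the replicate number as a block, and each library left out. Limma on TPM rescaled by a median-ratio size factor was chosen after seeing the data. The members and gene lists were chosen with earlier results of these data known. Genes were named by rule: Ctcf, the 10 members, the 3 genes closest to each member, and from each list the 2 largest changes called in a comparison or any gene given with its values in all 4 groups. Other list genes named were chosen after their values were seen. The ratios of Cd207 are those of counts summed over the libraries of a group, scaled for library size. Tables and plots were made with Python 3.11.15, pandas 2.3.3, numpy 2.4.6, scipy 1.17.1 and matplotlib 3.10.9.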

Additional observations from a re-analysis of the deposited data

Results flagged for a closer look

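The LPS response in KO differed from that in WT by the interaction test of edgeR for 4 of the 9 members tested (3 higher and 1 lower), beside 8.70% of all genes higher and 8.75% lower. These shares depend on single libraries. Of all genes 1225 were called lower, but 671 without WT replicate 3 and 2013 without KOL replicate 2. The 1218 called higher became 841 without KO replicate 3 and 1756 without KOL replicate 2. The difference on the log2 scale was 1.00 for Clec7a, which fell 2.54-fold with LPS in WT and 1.27-fold in KO. It was 0.48 for Clec4d and 0.43 for Ly75, which both rose more with LPS in KO. For Mrc1 it was -0.67, with a larger fall with LPS in KO. Of these 4, Clec7a was called under each alternative run, and the other 3 were not.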

How the results depend on the processing

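Of 432 values of the log2 fold changes of the 9 members other than Cd207 under alternatives other than leaving out a library, 385 kept their direction and their side of the threshold, 35 were no longer called, 2 became called and 10 changed sign. Unscaled TPM moved the median of all genes by -0.44 in WTL against WT, -0.38 in KOL against KO and -0.10 in KO against WT on log2(TPM + 1). Relative to it, the values there were 0.35 for Cd209a, 0.01 for Clec10a in WTL against WT, and 0.19 for Clec10a in KOL against KO. Without that allowance, Cd209a in WTL against WT was -0.090 with a pseudocount of 1 and -0.10 with 0.1, Clec10a -0.43 and -0.45 in WTL against WT and -0.19 and -0.21 in KOL against KO, and Clec4a2 -0.12 and -0.12 in KOL against WTL. Clec4a2 was -0.091 on rescaled TPM, and Clec10a in WTL against WT was -0.009 without a filter. The cause was not tested for Clec4a2. Counted over the same 9, limma on log2(TPM + 1) and log2(TPM + 0.1) gave 3 higher and 5 lower in WTL against WT and 1 higher in KO against WT. Rescaled TPM gave 3 higher and 3 lower in WTL against WT and 2 higher in KO against WT. For the difference in LPS response 1 was higher on log2(TPM + 1) and on rescaled TPM, and 0 were lower on each of the 3 TPM scales with limma. At an unadjusted p under 0.05 these 3 scales gave 4 higher and 0 lower for that difference, and edgeR gave 4 higher and 2 lower. At the adjusted threshold 1 was lower with edgeR, and DESeq2 and edgeR without a filter each gave 2 lower for that difference. The fold cutoffs left 2 higher and 1 lower in WTL against WT, 1 higher in KOL against WTL and 0 lower in KOL against KO, where 4 were lower without a cutoff.

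With each library left out, the number called for the difference in LPS response was 1 to 3 higher and 0 to 2 lower. The value of Clec10a was -0.11 to 0.084 in WTL against WT and -0.026 to 0.18 in KOL against KO, that of Mrc1 in KO against WT -0.063 to 0.011, and that of Clec4a2 in KOL against WTL -0.061 to 0.13. For the difference in LPS response, Clec4e ranged from -0.28 to 0.026, Clec4n from -0.12 to 0.042 and Clec10a from -0.041 to 0.21. None of these was called with all libraries. Correlations of the deviations from group means were -0.286 to 0.112 over 18 same-numbered pairs of libraries and -0.269 to 0.326 over 36 other pairs. They give no sign that the numbers pair the libraries, but with 3 libraries per group they cannot exclude it. With the replicate block, 3 calls were lost, Mrc1 in WTL against WT (-0.33), Clec4d in KOL against WTL (-0.28) and Clec4d for the difference in LPS response (0.49), and no other call of a member changed. At this depth the Cd207 counts in KO and KOL, 0 to 12 per library, do not resolve a difference between these 2 groups.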
